A study of Mus musculus with 2 samples.

Results

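Collagen-rich mesenchymal cells that carried a set of corneal stromal transcripts, led by Kera and Matn4, were examined in mouse eye cups of embryonic day e15.5. A cell was counted among these Kera/Matn4 cells when it passed 3 steps. It had to hold at least 10 unique molecular identifiers (UMIs, tags that count each captured transcript once) of Col1a2 and Col3a1 together, which marked it as mesenchyme. It had to hold a UMI of at least 2 of the 5 panel genes Kera, Matn4, A2m, Cpxm2 and Dpep1. It could hold at most 1 gene of a tendon panel (Scx, Tnmd, Meox2, Meox1, Mkx), at most 1 of a second mesenchymal panel (Osr2, Osr1, Foxl2, Tbx22, Alx1), and neither the endothelial gene Pecam1 nor the muscle gene Myod1. Of the 20430 cells kept in the series, 1302 met this rule. They comprised 728 of 9722 control cells and 574 of 10708 mutant cells.

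The series compared 2 single-cell RNA-seq libraries, 1 per genotype, each prepared from 3 eye cups that had been pooled. The control was Myrf fl/fl, which carries conditional Myrf alleles and no Cre. In mutant eyes, designated Rx>cre Myrf fl/fl, a transgene with the Rx promoter drives Cre in the early eye field, the source of the neural retina and the retinal pigment epithelium (RPE). The conditional alleles were shared by both groups. The periocular mesenchyme arises mainly from neural crest and lies outside the eye field. By the protocol, the eye cups were freed of cornea, lens and optic nerve before dissociation. Only 12 Myrf UMIs were counted over all Kera/Matn4 cells of the control and 15 over those of the mutant, so deletion could not be assessed in these cells.

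The corneal stroma is built by neural crest cells that migrate between the surface ectoderm and the lens and then differentiate into keratocytes. Keratocytes lay down thin, evenly spaced collagen fibrils, and small leucine-rich proteoglycans such as keratocan (Kera), lumican (Lum) and decorin (Dcn) bind these fibrils and set their diameter and spacing. Some of these core proteins carry keratan sulfate chains, and mature keratocytes also accumulate soluble enzymes, among them the aldehyde dehydrogenase encoded by Aldh3a1 and the transketolase encoded by Tkt.

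Kera lies in a cluster of proteoglycan genes on chromosome 10 (GRCm38). Dcn (chr10:97479609-97518143), Lum (chr10:97565128-97572703), Kera (chr10:97606879-97613692) and Epyc (chr10:97644068-97682454) all lie on the plus strand, with 0 other protein-coding genes between them. The gap is 46984 bases from Dcn to Lum, 34175 from Lum to Kera and 30375 from Kera to Epyc. The other panel genes are dispersed, with Matn4 at chr2:164389393-164405160 on the minus strand, A2m at chr6:121635376-121679227, Cpxm2 at chr7:132032687-132154739 on the minus strand and Dpep1 at chr8:123186242-123201812. The 5 panel genes encode a keratan sulfate proteoglycan (Kera), a matrilin of the extracellular matrix (Matn4), a protease inhibitor (A2m), a carboxypeptidase-like secreted protein (Cpxm2) and a membrane dipeptidase (Dpep1).

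The 250 bases upstream of the start are shown for 4 genes on which the results turn: Pou3f3 and Tacr3, which had some of the highest ratios to other mesenchyme, the panel gene Cpxm2, and Thbs4, which was higher in the mutant library. Sequences are from RefSeq on GRCm38.p6 and overlap no annotated exon of GENCODE vM21. They read 5′ to 3′ on the strand of the gene, at chr1:42695518-42695767 (plus) for Pou3f3, chr3:134828757-134829006 (plus) for Tacr3, chr7:132154742-132154991 (minus) for Cpxm2 and chr13:92794819-92795068 (minus) for Thbs4. Capitals mark every match, on either strand, to the TATA box (TATAAA), the CCAAT box (its own letters), the GC box (GGGCGG), the bicoid-type homeodomain site (TAATCC) and the octamer (ATGCAAAT). No 2 of these matches overlap in the windows shown.
Pou3f3: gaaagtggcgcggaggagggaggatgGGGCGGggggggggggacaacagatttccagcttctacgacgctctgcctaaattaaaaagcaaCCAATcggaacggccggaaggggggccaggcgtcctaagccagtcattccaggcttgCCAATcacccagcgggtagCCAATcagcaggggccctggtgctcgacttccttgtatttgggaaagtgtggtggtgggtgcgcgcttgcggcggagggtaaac
Tacr3: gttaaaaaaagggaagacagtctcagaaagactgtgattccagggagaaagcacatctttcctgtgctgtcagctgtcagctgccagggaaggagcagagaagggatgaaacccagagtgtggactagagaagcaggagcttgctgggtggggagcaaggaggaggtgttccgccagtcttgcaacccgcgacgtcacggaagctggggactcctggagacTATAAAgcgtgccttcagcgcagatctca
Cpxm2: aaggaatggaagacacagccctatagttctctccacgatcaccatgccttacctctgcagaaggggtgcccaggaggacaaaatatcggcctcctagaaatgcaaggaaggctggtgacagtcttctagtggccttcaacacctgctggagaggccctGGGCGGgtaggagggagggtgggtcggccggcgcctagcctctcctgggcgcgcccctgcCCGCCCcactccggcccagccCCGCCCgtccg
Thbs4: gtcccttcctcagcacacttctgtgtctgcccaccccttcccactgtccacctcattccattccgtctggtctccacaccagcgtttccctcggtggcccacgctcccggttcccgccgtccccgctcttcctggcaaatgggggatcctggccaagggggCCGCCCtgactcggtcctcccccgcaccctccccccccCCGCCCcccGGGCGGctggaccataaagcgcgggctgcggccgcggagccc

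The Pou3f3 window held the CCAAT box on its own strand at 160, 103 and 84 bases before the start and the GC box at 224 bases, and the Tacr3 window held a TATA box at 29 bases. Both Cpxm2 and Thbs4 held 3 GC boxes, counted on both strands. Among 32851 such windows, 12.4% held the TATA box, 33.8% the CCAAT box, 32.7% the GC box, 6.25% the bicoid-type site and 1.60% the octamer, the last 2 of which had no match in the 4 windows shown. The windows were 60.8% (Pou3f3), 54.4% (Tacr3), 64% (Cpxm2) and 70.8% (Thbs4) G plus C, against a median of 52.4% over all windows. These matches describe letters and not sites of binding.

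Both libraries were deeply sequenced, and the Kera/Matn4 cells were of similar depth in each. In the control the median Kera/Matn4 cell held 13988 UMIs with 3854 genes detected. The median mutant cell held 15803.5 UMIs with 4026.5 genes detected. The mitochondrial share was 4.56% and 4.27%. The libraries differed in the sex of their cells. A Y-linked UMI was found in 0 of 728 Kera/Matn4 cells of the control, which allows a share of up to 0.412%, and in 50.2% of those of the mutant, and Xist in 99.3% and 52.8%, so that genotype and sex cannot be told apart over all cells. Genotype values are therefore also given for Xist-positive cells that held 0 Y-linked UMIs, called sex-restricted cells, of which there were 723 in the control and 254 in the mutant. The libraries shared 69 cell barcodes, and these included 4 control and 1 mutant Kera/Matn4 cells. Hereafter intervals are 95% intervals for counting error only. With 1 library per genotype, no difference between genotypes has a replicate check.

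Kera/Matn4 cells made up 7.49% (6.97% to 8.03%) of kept control cells and 5.36% (4.94% to 5.80%) of kept mutant cells, a ratio of 0.716 (0.641 to 0.80). Collagen-rich mesenchyme as a whole was also a smaller share of the mutant library, at 22.3% against 33.5%. Within collagen-rich mesenchyme, Kera/Matn4 cells were 22.3% (20.9% to 23.8%) of 3261 control cells and 24.1% (22.4% to 25.8%) of 2386 mutant cells, a ratio of 1.08 (0.964 to 1.20) whose interval includes equality. Over sex-restricted cells, the ratio over all kept cells was 0.985 and that over mesenchyme 1.30. The latter came from 723 of 3217 control and 254 of 871 mutant cells, and no interval is given. Of mutant Kera/Matn4 cells 44.3% were sex-restricted, against 36.5% of collagen-rich mesenchyme and 27.8% of kept cells. In the control these shares were 99.3%, 98.7% and 85.8%. The unequal shares enter both ratios. The comparison class below consists of the 2262 control and 1606 mutant collagen-rich cells with at most 1 panel gene, called other collagen-rich cells. A further 271 control and 206 mutant cells held 2 or more panel genes but were set aside by another criterion of the rule. Within the comparison class, 338 control and 245 mutant cells held 2 or more genes of the tendon panel and are called tendon-like, 742 and 544 those of the Osr2/Foxl2 panel, 341 and 162 those of both, and 841 and 655 those of neither.

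The panel genes chose the cells, so their levels are given as a description. Kera, the keratan sulfate proteoglycan, stood at 588 UMIs per 1e+06 UMIs of the class (CPM) among control and 1042 CPM among mutant Kera/Matn4 cells, against 68.3 and 60.03 CPM in other collagen-rich cells. Matn4 stood at 1100 and 1140 CPM, against 12.3 and 7.89 CPM. A2m stood at 118 and 365 CPM, against 0.83 and 1.44 CPM. Matn4 was thus the most even of these between libraries, while Kera and A2m were higher in the mutant. Cpxm2 was at 281 and 317 CPM, against 3.65 and 4.44 CPM, and Dpep1 at 254 and 247 CPM, against 4.88 and 6.003 CPM.

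Single cells varied widely around these sums. The median control cell held 3 Kera UMIs and the richest 94, whereas the median mutant cell held 10 and the richest 120. For Matn4 the medians were 14 and 18 and the highest counts 94 and 86. Kera was detected in 67.6% of the control and 76.7% of the mutant Kera/Matn4 cells, Matn4 in 92.6% and 91.8%, and A2m in 38.2% and 64.6%. Kera was detected in 18.0% and 15.4% of other collagen-rich cells. In retinal progenitor-like cells, which should lack them and whose median depths were 10146.5 and 9525 UMIs, these genes were seen in 0.78% and 1.68% (Kera), 1.59% and 2.93% (Matn4) and 1.07% and 1.79% (A2m) of cells. After each cell was thinned to 2000 UMIs, Kera was detected in 43.8% of control and 58.5% of mutant Kera/Matn4 cells, and A2m in 14.4% and 33.8%.

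More panel genes were detected per cell in the mutant library, where A2m and Kera differed most, as given above. Cpxm2 (88.5% of control and 91.6% of mutant Kera/Matn4 cells) and Dpep1 (86.3% and 85.2%) were nearly even. The panel chose the cells, so these shares are a description. All 5 were found in 32.1% of control and 55.2% of mutant Kera/Matn4 cells, and at least 4 in 60.4% (56.8% to 64.0%) and 71.6% (67.7% to 75.3%). The corresponding shares for at least 4 genes at 2000 UMIs per cell were 16.3% (13.7% to 19.2%) and 29.1% (25.4% to 33.0%).

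**Figure D1:**
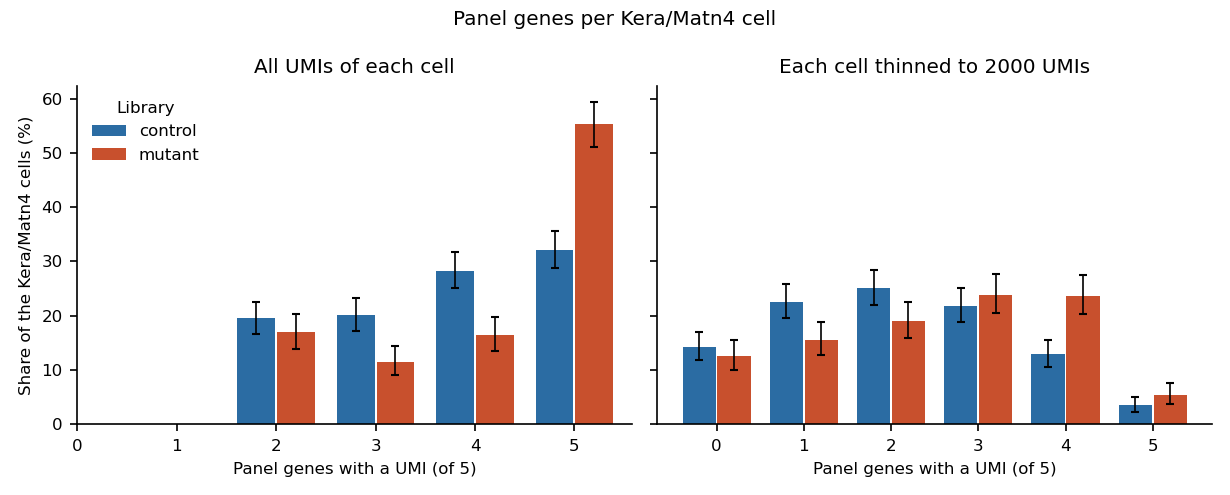
Share of the Kera/Matn4 cells (%) by the number of panel genes with a UMI, for the control and mutant libraries, before and after each cell was thinned to 2000 UMIs; bars are shares and black lines 95% Clopper-Pearson intervals. All 5 genes were found in 55.2% of mutant and 32.1% of control cells at full depth, and thinning left 5.40% and 3.43%.

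The threshold of 2 panel genes fell within a gradient. Control cells with exactly 2 panel genes (142 cells) held Kera at 42.7 CPM and Matn4 at 201 CPM, and those with 1 (238 cells), just outside the rule, held 11.04 and 60.3 CPM. In the mutant, cells with 2 (97 cells) held 49.8 and 153 CPM, and cells with 1 (190 cells) held 13.3 and 33.1 CPM. Near the collagen threshold, 2 control and 6 mutant Kera/Matn4 cells had 10 to 14 UMIs of the 2 collagens. Below it, 1 and 4 cells with 5 to 9 UMIs and 22 and 37 cells with 0 to 4 UMIs met the remaining criteria. The gradient extended to genes the rule did not use. From 0 to 5 panel genes, Aqp1 ran from 10.7 to 382 CPM in the control and from 14.9 to 399 CPM in the mutant, and Aldh3a1 from 0.23 to 97.4 CPM and from 0.13 to 93.4 CPM.

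The label markers that the rule left out were both high in these cells. Aqp1, a water channel, was at 241 CPM in control and 315 CPM in mutant Kera/Matn4 cells, against 14.04 and 19.2 CPM in other collagen-rich cells, ratios of 17.1 (15.6 to 18.9) and 16.4 (14.8 to 18.1). Col6a2, a chain of the beaded filament collagen VI, was at 641 and 901 CPM, against 135 and 162 CPM. Aqp1 was detected in 80.6% and 86.4% of Kera/Matn4 cells and in 0.74% and 0.92% of progenitor-like cells.

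Other corneal stromal genes were for the most part higher too. For all genes with at least 50 UMIs over both classes in each library (12622 genes), a gene was counted as higher or lower only where its ratio passed 2-fold in both libraries, which held for 3.04% of genes (384, higher) and 5.78% (730, lower, or 484 over sex-restricted cells). The cells were chosen from these same counts, so that the list counts below are descriptions. Of 15 keratocyte genes, 9 were higher and 2 lower. Of 13 small leucine-rich proteoglycan genes, which include Kera itself, 7 were higher and 1 lower. The median log2 ratio of the keratocyte list was 1.75 in the control and 1.44 in the mutant, where the median over all genes was −0.07 and −0.13.

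Lum, the proteoglycan next to Kera on the chromosome, reached 2826 CPM in control and 3290 CPM in mutant Kera/Matn4 cells, against 811 and 761 CPM in other collagen-rich cells. Dcn reached 4834 and 5632 CPM, against 1234 and 1360 CPM. Both were also abundant outside the Kera/Matn4 cells, and their detection in 99.0% and 98.6% (Lum) and 99.2% and 98.8% (Dcn) of Kera/Matn4 cells separated classes less than their level did. Epyc, the fourth gene of the cluster, went the other way, with 3 and 8 UMIs in all Kera/Matn4 cells, or 0.27 and 0.82 CPM, against 61.3 and 50.6 CPM in the others. Among those others, Epyc was at 79.7 and 64.3 CPM in the tendon-like and at 81.9 and 67.6 CPM in the Osr2/Foxl2 cells. Kera itself was also present in tendon-like cells, at 129 and 122 CPM, and at 3.25 and 4.19 CPM in cells of no panel. Kera in Osr2/Foxl2 cells, and either gene in cells of both panels, is not given.

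Aldh3a1, the aldehyde dehydrogenase of the mature cornea, was the gene with the highest ratio outside the panel. It was at 51.3 CPM in control and 63.2 CPM in mutant Kera/Matn4 cells, against 0.26 and 0.21 CPM in other collagen-rich cells, ratios of 200 (105 to 439) and 307 (131 to 950). It was detected in 32.6% and 39.5% of Kera/Matn4 cells, against 0.04% and 0.31% of progenitor-like cells. Tkt was at 574 and 588 CPM, against 188 and 177 CPM. Chst5 (55.0 and 83.7 CPM, against 4.71 and 5.88 CPM) and B3gnt7 (16.2 and 28.9 CPM, against 2.08 and 2.26 CPM) encode a sulfotransferase and a glycosyltransferase of keratan sulfate synthesis. They were the only 2 of 12 keratan sulfate genes past 2-fold, both higher. The 2 keratocyte genes on the low side were Cd34 (9.36 and 5.74 CPM, against 69.1 and 71.0 CPM) and Angptl7 (2.07 and 4.10 CPM, against 15.49 and 11.3 CPM). Ptgds, the prostaglandin D synthase of the adult stroma, was at 6.48 and 17.2 CPM, against 31.3 and 8.22 CPM, so that the sides differed between libraries.

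**Figure D2:**
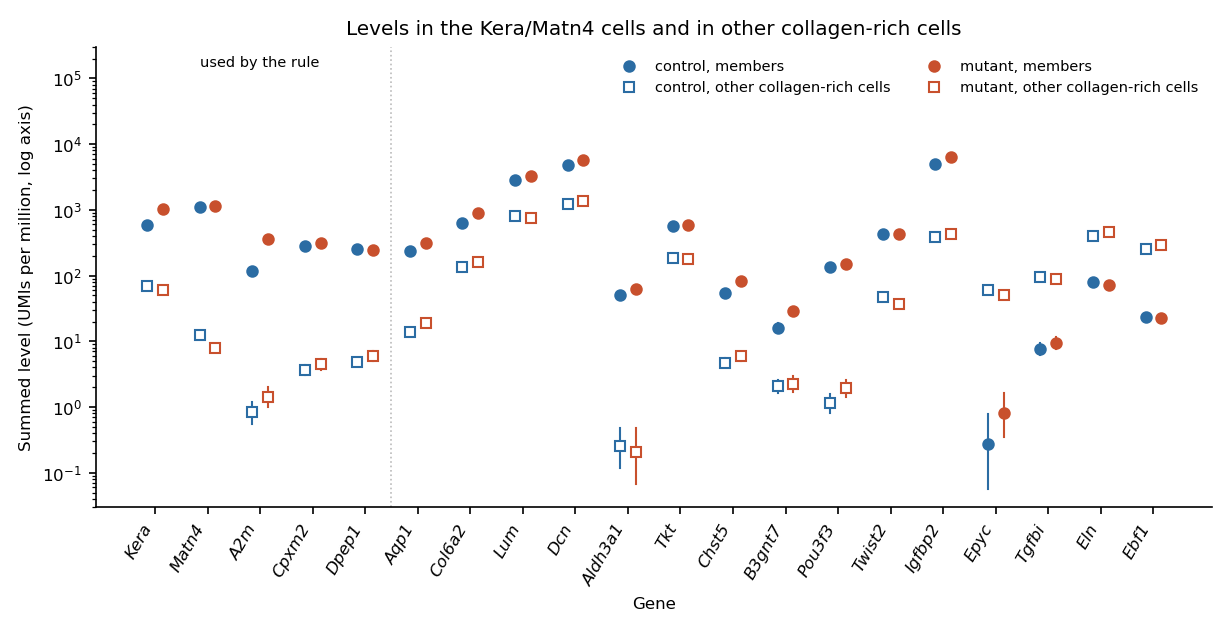
Summed level (CPM, log axis) of panel genes, label markers and further genes in the Kera/Matn4 cells and in other collagen-rich cells of each library, with exact 95% Poisson intervals; filled circles are the Kera/Matn4 cells (members), open squares the other cells, and colours the libraries. Lum was at 2826 CPM in control Kera/Matn4 cells and 811 CPM in other cells, Epyc at 0.27 and 61.3 CPM.

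Collagens were in part higher. Of 28 collagen genes, 14 were higher and 5 lower, with a median log2 ratio of 0.86 in the control and 1.34 in the mutant. Col1a1, the main fibrillar chain, was at 6960 and 10798 CPM, against 2518 and 3124 CPM. Col5a1, a chain that limits fibril diameter, was at 1156 and 1810 CPM, against 336 and 377 CPM. Col24a1, another fibrillar chain, was at 59.3 and 79.5 CPM, against 5.65 and 5.39 CPM. Col9a3, of a fibril-associated collagen best known from cartilage, was at 126 and 201 CPM, against 14.2 and 14.3 CPM. Col3a1, which the rule used, was nearly even, at 2201 and 3080 CPM against 2381 and 2842 CPM. The 5 on the low side were Col5a3, Col6a6, Col11a2, Col15a1 and Col18a1.

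Of 27 elastic matrix genes, 2 were higher and 10 lower, with a median log2 ratio of −0.21 in the control and −0.31 in the mutant. Eln (elastin) was at 80.2 and 72.1 CPM, against 398 and 459 CPM, and Efemp1 (a fibulin) at 8.37 and 10.5 CPM, against 91.3 and 81.5 CPM. Tgfbi, a matrix protein of the adult cornea, was also low, at 7.74 and 9.44 CPM against 93.7 and 87.8 CPM. The 2 higher genes were Thbs2 (263 and 353 CPM, against 48.8 and 59.8 CPM) and Spon1 (49.7 and 77.7 CPM, against 9.02 and 9.21 CPM). Of 10 corneal endothelial genes, Col8a2 was higher, at 257 CPM in control and 258 CPM in mutant Kera/Matn4 cells, and 4 were lower. Slc4a11, the defining transporter of that endothelium, was at 0.99 and 1.44 CPM.

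Transcription factors known from the periocular mesenchyme were divided, with 6 of 42 higher and 18 lower. Twist2, a basic helix-loop-helix factor, was at 432 and 427 CPM, against 47.5 and 37.4 CPM. Its relative Twist1 was at 967 and 805 CPM, against 283 and 213 CPM. The others on the high side were Prrx1, Tfap2b, Lmx1b and Lef1. Foxc1 was at 76.8 and 59.2 CPM, against 130 and 126 CPM, and Ebf1 at 23.1 and 22.8 CPM, against 254 and 290 CPM.

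Pou3f3, a POU-domain factor outside that list, was at 134 and 152 CPM, against 1.14 and 1.93 CPM, ratios of 117 (85.8 to 165) and 78.8 (58.9 to 108). It was detected in 63.5% and 72.5% of Kera/Matn4 cells and in 1.41% and 1.87% of other collagen-rich cells, while 0.48% and 0.81% of progenitor-like cells held a UMI. Pantr1, a long intergenic non-coding RNA on the opposite strand whose start lies 926 bases from that of Pou3f3 (chr1:42695768-42703176), was at 123 and 143 CPM, against 1.71 and 3.04 CPM. The neighbours were thus both high in these cells.

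The remaining genes with the highest ratios were of low level. Rasgrf1, a Ras exchange factor, was at 12.6 and 16.9 CPM, against 0.09 and 0.08 CPM. Tacr3, the neurokinin B receptor, was at 9.54 and 12.9 CPM, against 0.26 and 0.29 CPM. Apela, a small peptide ligand of the apelin receptor, was at 30.1 and 37.7 CPM, with ratios of 43.9 and 70.6. Ccbe1, a secreted protein of lymphatic growth, was at 25.4 and 22.4 CPM, with ratios of 38.7 and 34.0. Kcns1, Zar1, Adh7, Tmc3, Gm28175, Gm35024 and Gm45187 were also among the 15. Rbpjl overlaps Matn4 by 2020 bases on the opposite strand, and its 14.8 and 10.5 CPM are given as uncertain. At the other end stood Grem1, an antagonist of bone morphogenetic proteins, with 1 UMI in all Kera/Matn4 cells of each library against 30.1 and 28.5 CPM in others. Abi3bp (2 and 2 UMIs), Gata3 (2 and 1 UMIs), Tbx15 (6 and 4 UMIs), Nov, Slitrk1, Nppc, Wnt16 and Tnxb were low likewise.

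**Figure D3:**
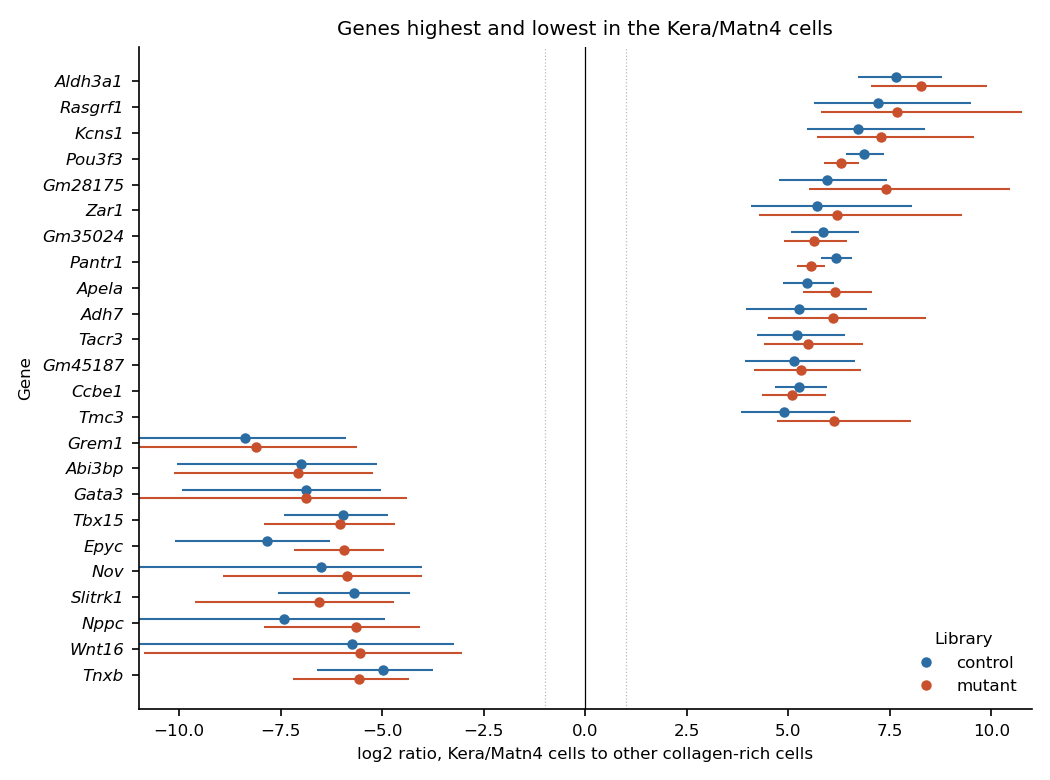
Ratio (log2) of the level in Kera/Matn4 cells to that in other collagen-rich cells for genes among the 15 highest and 10 lowest outside the rule, in each library; lines are exact 95% counting intervals. In the control, the ratio before the log was 200 for Aldh3a1 and 117 for Pou3f3.

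Secreted signals also differed by family. Of 28 Wnt pathway genes, 7 were higher and 6 lower. Dkk1, a Wnt antagonist, was at 74.5 and 77.6 CPM, against 4.11 and 7.57 CPM. Dkk2, a relative required for corneal fate of the ocular surface, was at 1480 and 1428 CPM, against 407 and 368 CPM. The ligand Wnt11 was at 57.9 and 80.6 CPM, against 11.6 and 11.7 CPM, and the target genes Axin2 and Nkd1 were on the high side too. Of 34 TGFβ and BMP genes, 1 was higher and 9 were lower. Of 16 retinoid genes 2 were higher, Crabp1 (487 and 488 CPM, against 88.2 and 63.9 CPM) and the retinoic acid-degrading Cyp26b1 (22.2 and 10.97 CPM, against 4.77 and 4.44 CPM), and 5 were lower.

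Igfbp2, a binding protein of insulin-like growth factors, was abundant, at 4960 and 6321 CPM against 389 and 424 CPM. Igf1 itself was at 60.7 and 47.4 CPM, against 256 and 343 CPM. Of the 25 insulin-like, fibroblast and platelet-derived growth factor genes, 3 were higher and 11 lower. Of 26 protease and inhibitor genes 4 were higher (Serpinf1, Pcolce, Cpz and Htra1) and 7 lower, and of 21 guidance genes 3 were higher (Sema3c, Sema3f and Efna5) and 5 lower. The 15 genes each of S phase and of G2 and mitosis gave 0 higher and 0 lower, and of 15 stress response genes 0 were higher and 5 lower.

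RNA of other cell types was present at the following levels. Neural retina genes summed to 606 CPM in control and 845 CPM in mutant Kera/Matn4 cells, against 617 and 864 CPM in other collagen-rich cells. The 9 genes of the erythroid list, mostly haemoglobins, summed to 6675 and 4829 CPM, against 9131 and 8514 CPM. Immune genes summed to 141 and 9.33 CPM and RPE genes to 42.7 and 97.1 CPM, and these were held by few cells: the richest 5 cells carried 96.7% and 60.4% of the immune UMIs and 72.6% and 88.9% of the RPE UMIs. Cells with at least 5 immune or at least 10 RPE UMIs numbered 11 (1.51%) in the control and 10 (1.74%) in the mutant.

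Ratios between genotypes are given beside those of other collagen-rich cells, and the difference between the 2 classes was not tested. In all, 11519 genes with 50 or more UMIs in the libraries together entered the comparison within the Kera/Matn4 cells at a limit of 1.5-fold. In the mutant 318 (2.76%) were higher and 319 (2.77%) lower. When ratios were centred on the median log2 ratio of −0.06, the split was 380 higher and 251 lower. Over the sex-restricted cells, 223 of 10958 genes (2.04%) were higher and 725 (6.62%) lower, and list counts over those cells below are read against these shares. In other collagen-rich cells, 3.13% of 13500 genes were higher in the mutant and 1.76% lower.

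Several collagen genes were higher in the mutant. Of 24 collagens compared, 8 were past 1.5-fold (Col1a1, Col5a1, Col5a2, Col2a1, Col9a1, Col9a2, Col9a3 and Col18a1), all higher, the rest passed neither limit, and the median log2 ratio was 0.50. With at least 3 panel genes the ratio of Col18a1 turned to 0.97. Col1a2, which the rule used and the list leaves out, had a ratio of 1.52. The list median was 0.15 in other collagen-rich cells and 0.38 in the sex-restricted cells, of whose collagens 3 passed 1.5-fold. Col1a1 was at 6960 CPM in control and 10798 CPM in mutant Kera/Matn4 cells, a ratio of 1.55 (1.54 to 1.57) against 1.24 in other collagen-rich cells. For Col5a2, 960 and 1546 CPM gave a ratio of 1.61 (1.57 to 1.65), against 1.13. For Col9a3, 126 and 201 CPM gave 1.59 (1.49 to 1.71), against 1.01. Col8a2 was equal, at 257 and 258 CPM. In sex-restricted cells, the ratio was 1.45 (1.44 to 1.47) for Col1a1 and 1.59 (1.54 to 1.64) for Col5a2.

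The proteoglycans and their modifying enzymes showed smaller or single differences. Kera was 1.77-fold (1.72 to 1.83) higher in the mutant, and 1.74-fold (1.67 to 1.81) in sex-restricted cells. In other collagen-rich cells the ratio was 0.88. Lum had a ratio of 1.16 (1.15 to 1.18) and Dcn of 1.17, while Aspn, a proteoglycan that inhibits TGFβ, was at 148 and 121 CPM, a ratio of 0.81 (0.75 to 0.88), against 1.60 in other collagen-rich cells. Of 9 proteoglycan genes compared, 1 was past 1.5-fold, Kera, which the rule used. Of 14 keratocyte genes 4 were higher (Ptgds, Angptl7, Chst5 and B3gnt7) and 1 lower (Cd34). Over the sex-restricted cells this was 1 higher and 1 lower of 13, and the ratio of Ptgds turned to 0.93. The Ptgds ratio of 2.66 over all cells was 1.25 (0.73 to 2.17) without Scrublet doublets. Of 12 keratan sulfate genes 3 were higher (Chst5, Chst7 and B3gnt7) and 1 lower (Chst1), and over the sex-restricted cells 1 was higher and 1 lower of 11. Chst5 had a ratio of 1.52 (1.37 to 1.69) and B3gnt7 of 1.78 (1.47 to 2.16). In sex-restricted cells these ratios were 1.499 (1.31 to 1.72), under the limit, and 1.70 (1.33 to 2.16). A2m was 3.09-fold (2.90 to 3.3) higher, and 2.76-fold (2.56 to 2.99) in the sex-restricted cells.

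**Figure D4:**
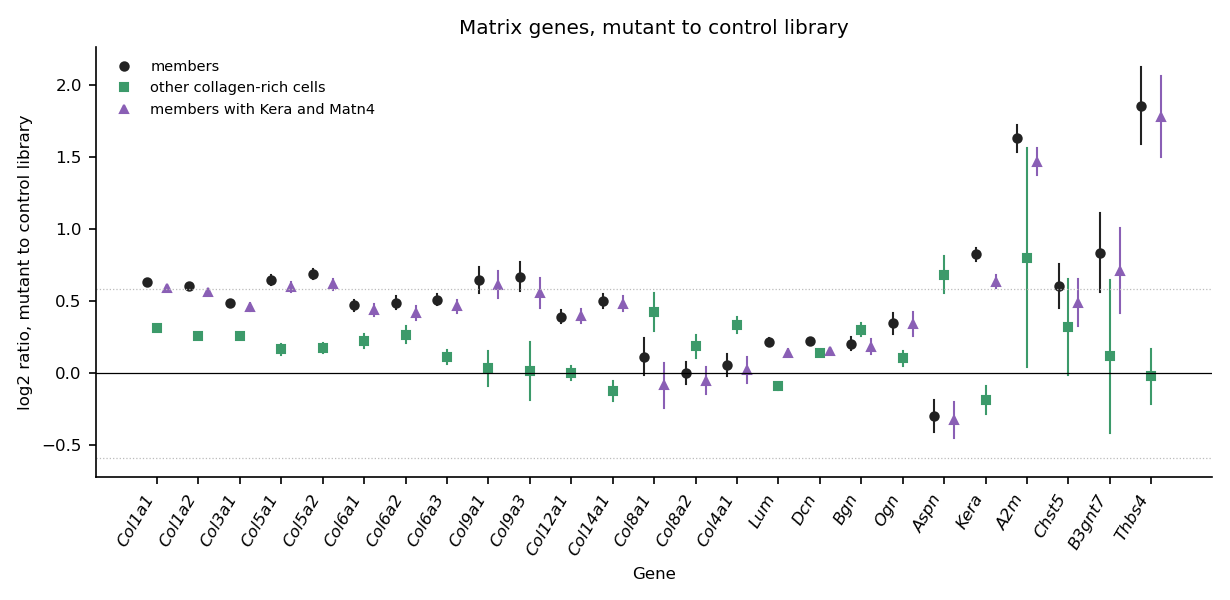
Ratio (log2) of the mutant to the control library for matrix genes in the Kera/Matn4 cells and in other collagen-rich cells, with exact 95% counting intervals. In the Kera/Matn4 cells the ratio before the log was 1.61 for Col5a2 and 0.81 for Aspn, and in other collagen-rich cells it was 1.13 and 1.60.

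Thbs4, a thrombospondin of tendon and muscle matrix, had 153 UMIs in control and 486 UMIs in mutant Kera/Matn4 cells. These were 13.8 and 49.8 CPM, a ratio of 3.62 (3.01 to 4.37), and 3.25 (2.61 to 4.06) in sex-restricted cells. In other collagen-rich cells the ratio was 0.98 (0.86 to 1.12). It was detected in 12.2% of control and 31.5% of mutant Kera/Matn4 cells, against 0.24% and 0.48% of progenitor-like cells, and the 5 richest cells held 14.4% and 10.9% of its UMIs. The detection thus lay in many cells of both libraries.

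Among regulators, differences went in both directions. Of 36 transcription factors of periocular mesenchyme, 2 (Tbx18 and Egr1) were higher and 5 lower (among them Foxc2, Foxd2, Meis2 and Six2), with a median log2 ratio of −0.16. Over the sex-restricted cells, 1 was higher and 9 were lower of 34, with a median of −0.25, where 6.62% of all genes were lower. Foxc2, a forkhead factor, was at 35.9 CPM in control and 18.0 CPM in mutant Kera/Matn4 cells, a ratio of 0.50 (0.42 to 0.60), against 0.82 in other collagen-rich cells and 0.48 (0.37 to 0.62) in the sex-restricted cells. Cyp26b1, at 22.2 and 10.97 CPM, had a ratio of 0.50 (0.39 to 0.62), against 0.93 in other collagen-rich cells and 0.63 (0.47 to 0.84) in the sex-restricted cells. Igfbp3 was at 9.27 and 1.95 CPM, a ratio of 0.21 (0.12 to 0.34), and Igfbp7 at 14.3 and 37.7 CPM, a ratio of 2.64 (2.18 to 3.20). In sex-restricted cells these ratios were 0.10 and 2.20. Igfbp7 was also higher in the other collagen-rich cells of the mutant, at a ratio of 1.88. The Wnt list had 0 higher and 2 lower of 25 genes (Wnt2 and Wif1), and 1 and 1 of 23 over the sex-restricted cells. The TGFβ and BMP list had 2 higher (Ltbp2 and Ltbp4) and 1 lower of 29, the receptor antagonist Bambi, at 26.2 and 15.7 CPM. Over the sex-restricted cells that list had 0 higher and 2 lower of 29. Guidance genes had 0 and 0 of 20, or 0 higher and 3 lower of 19 over the sex-restricted cells, and the lists of S phase and of G2 and mitosis 0 and 0 of 15 each. In the sex-restricted cells, however, 1 of 15 genes of S phase and 8 of 15 genes of G2 and mitosis were lower in the mutant, the latter with a median log2 ratio of −0.64. Of 13 stress response genes, 1 was higher and 3 lower with a median log2 ratio of −0.24, and over the sex-restricted cells 1 and 3 of 12 with −0.38.

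The genes with the widest differences by the bound nearest to 1 were largely those of other cell types. The 10 lowest in the mutant were Trem2, C1qa, C1qb, Aif1, Ctss, Fcer1g, Ly86, Fcrls, C1qc and Tyrobp, all genes of macrophages and microglia. Control cells held 93 Trem2 UMIs and mutant cells 0. Among the 10 highest were Msc, Gfra3, Pmel, Thbs4, Trpm1, Wfdc12, Tyrp1, Mlana and Egfl8. Of the mutant UMIs, the 5 richest cells held 69.0% for Gfra3, 77.8% for Wfdc12 and 85% for Egfl8, against 10.9% for Thbs4. Pmel, Trpm1, Tyrp1 and Mlana are pigment cell genes. The summed levels of the immune and RPE lists, given above, moved with the macrophage and pigment cell genes. Of the 9 immune genes, 0 were without a UMI in the control and 1 (Ptprc) in the mutant. Rpe65, which defines mature RPE, had 0 UMIs in both libraries. Without the 11 control and 10 mutant cells rich in these lists, the mutant to control ratio was 1.77 for Kera, 3.15 for A2m, 1.56 for Col1a1 and 3.62 for Thbs4, and that of Pmel was 0.84 (0.56 to 1.24).

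The Kera/Matn4 cells were not uniform. Both Kera and Matn4 were detected in 478 control (65.7%, 62.1% to 69.1%) and 422 mutant cells (73.5%, 69.7% to 77.1%). Matn4 without Kera was found in 196 (26.9%, 23.7% to 30.3%) and 105 cells (18.3%, 15.2% to 21.7%), a ratio of 0.679 (0.531 to 0.866). Kera without Matn4 was found in 14 and 18 cells, and neither gene in 40 and 29. Depth was similar, with medians of 13837.5 and 16187 UMIs in cells with both and 13562 and 14797 UMIs in cells with Matn4 alone.

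Cells with Matn4 alone differed from cells with both in further genes. The 12 highest and the 12 lowest genes were examined. For 10783 genes with at least 30 UMIs over both subsets in each library, 1.62% were at least 2-fold higher in cells with both in each library and 1.40% lower. Aldh3a1 was at 73.7 CPM in cells with both and 11.5 CPM in cells with Matn4 alone in the control, and at 83.3 and 5.24 CPM in the mutant. Tacr3 was at 14.1 and 1.04 CPM in the control, and at 17.2 and 0.58 CPM in the mutant. Apela (44.1 and 4.18 CPM, then 49.3 and 5.24 CPM) and Thbs4 (19.1 and 2.79 CPM, then 65.3 and 4.65 CPM) were arranged in the same way. Cells with Matn4 alone were thus low in several of the genes that marked the class as a whole.

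In the opposite direction, Msx1, a homeobox gene, was at 1.37 CPM in cells with both and 17.4 CPM in cells with Matn4 alone in the control, and at 0.69 and 21.5 CPM in the mutant. The ligand Wnt6 was at 1.65 and 30.3 CPM, then 1.92 and 23.9 CPM. Ednrb, an endothelin receptor of neural crest derivatives, was at 23.6 and 154 CPM, then 32.5 and 232 CPM. Cldn10 (7.69 and 65.1 CPM, then 10.8 and 133 CPM) and the BMP and Wnt antagonist Sostdc1 (6.18 and 35.9 CPM, then 8.78 and 71.0 CPM) followed, with Ptger3, Fgd6, Thbd, Arhgap20, Tspan18, Dsc2 and Gdf10. Shox2, Zar1, Htr2a, Tmc3, Wscd2, Erp27, Clvs1 and Gm45187 completed the genes highest in cells with both.

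**Figure D5:**
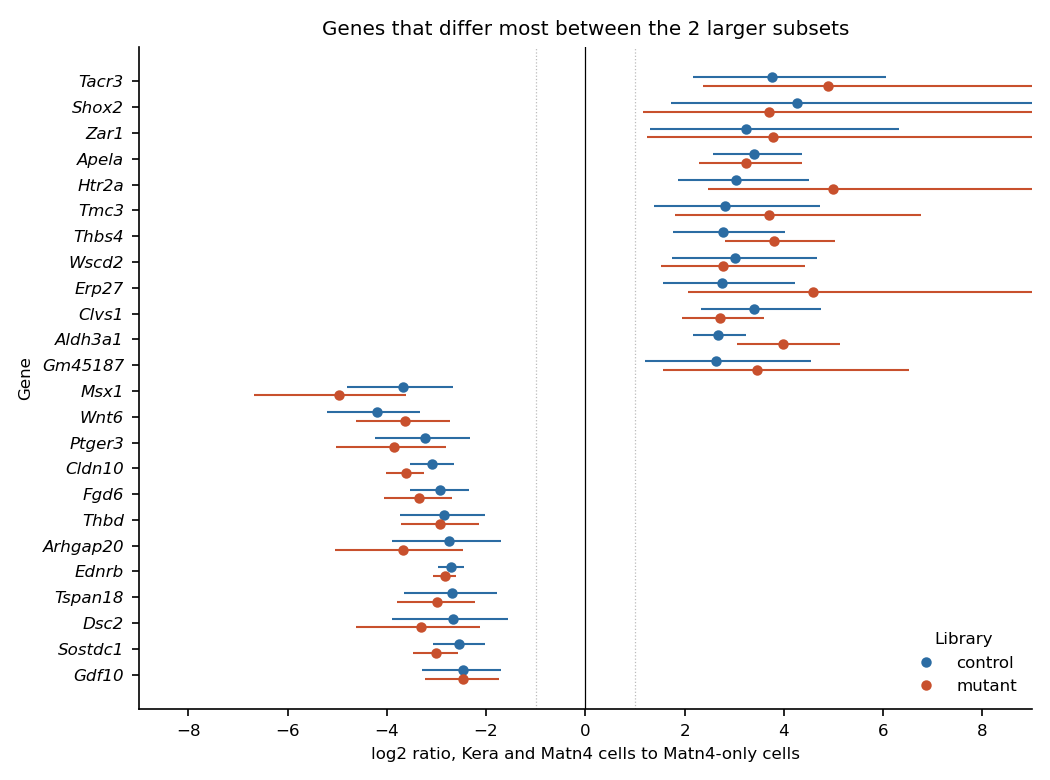
Ratio (log2) of the level in cells with Kera and Matn4 to that in cells with Matn4 alone, for the genes that differed most, in each library; lines are exact 95% counting intervals. The ratio before the log was 6.42 in the control and 15.9 in the mutant for Aldh3a1.

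The genotype difference in collagens was wider in cells with both genes than in cells with Matn4 alone. Their median collagen log2 ratio was 0.45, and that of cells with Matn4 alone was 0.03. For Col1a1 the mutant to control ratio was 1.5 (1.49 to 1.52) in cells with both and 1.14 (1.11 to 1.17) in cells with Matn4 alone, and for Col5a2 it was 1.53 (1.49 to 1.58) and 1.17 (1.08 to 1.27). Kera was 1.55-fold higher (1.5 to 1.60) in the mutant cells with both, where the rule for the subset itself required it. Matn4 was 0.99-fold (0.96 to 1.02) in cells with both and 0.78-fold (0.72 to 0.85) in cells with Matn4 alone. Foxc2 was lower in the mutant in both subsets, at 0.43 (0.33 to 0.56) and 0.61 (0.43 to 0.84). For Igfbp3, the ratio was 0.69 (0.29 to 1.58) in cells with both and 0.08 (0.01 to 0.31) in cells with Matn4 alone. The difference between subsets in these ratios was not tested.

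The few cells with Kera and without Matn4, 14 and 18, were compared with cells with Matn4 alone by the same measure. Ccne1, Rarb, Igfbpl1, Crip2, Tmem100, Igfbp7, Lamb1 and Acta2 had the highest ratios and Maob, Dkk1, Knl1, Ednrb, Insr, Aspm, Ahr and Htra1 the lowest. Acta2, smooth muscle actin, had ratios of 8.16 in the control and 2.65 in the mutant, and Dkk1 had 0.08 and 0.18. With so few cells these values describe single cells as much as a subset.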

How the data were processed

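For 1 library of each genotype, the authors deposited matrices of unnormalized counts, the UMIs of every gene in every cell. Per the labels, reads were processed with Cell Ranger 7.1.0 on mm10 and cells with Seurat 4.1.1, whereas the matrix headers name software version 3.1.0. The study's methods state a limit of 2000 counts above which cells were removed as doublets. The rule used here keeps cells with at least 2000 UMIs, so its cells are not those of the study's filter. At most 2000 UMIs were held by 2220 control and 2310 mutant barcodes that passed the other filters.

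Cells with at least 200 genes, at least 2000 UMIs and at most 15% mitochondrial UMIs were kept, without removal of doublets. Scrublet in scanpy 1.11.5 called 7.97% of the control and 8.54% of the mutant Kera/Matn4 cells, against 3.55% and 3.40% of all cells tested, and their removal was an alternative. Groups were taken from the genotype in the labels. The depth behind each sum was 11105490 UMIs in control and 9749838 UMIs in mutant Kera/Matn4 cells. UMIs were summed per class and library in Python 3.11.15, and CPM is such a sum per 1e+06 UMIs of the class. Intervals, from scipy 1.17.1, are exact Poisson for sums, exact conditional binomial for ratios and Clopper-Pearson for shares. They assume independent UMIs. A gene at 0 UMIs was set to 3 counts. No test was made between genotypes, since cells are not replicates. The members, panels and gene lists were chosen with earlier results of these data known. Named genes were those of the rule and lists, the 15 highest and 10 lowest against other collagen-rich cells, the 10 highest and 10 lowest between genotypes by the bound nearer to 1 (without sex-linked, haemoglobin and mitochondrial genes), and the 8 at each end for Kera without Matn4. The contrast of cells with both genes against Matn4 alone was added after the data were seen. Calculations were tested on simulated data. Gene positions are from GENCODE vM21 on GRCm38. Promoters were read from a RefSeq table, which held none for Lum, Dcn, Aldh3a1 and A2m. A few genes that these rules would name are not reported here.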

Additional observations from a re-analysis of the deposited data

Results flagged for a closer look

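From the 10 highest and 10 lowest genes between genotypes and the collagen and other list genes taken up in the text, 16 were flagged. Their mutant to control ratios lay on opposite sides of 1 in the Kera/Matn4 cells and in other collagen-rich cells. In each class the counting interval also excluded 1, which was not so for Thbs4 in other collagen-rich cells. The number of genes searched is not given. The difference between the classes was not tested. Msc, a basic helix-loop-helix factor of muscle precursors, had a ratio of 7.12 (3.35 to 17.4) in Kera/Matn4 cells and 0.792 in the others. It rested on 8 control and 50 mutant UMIs, of which the 5 richest cells held 62.5% and 96%, and without those cells the log2 ratio turned to −0.40. The 4 pigment cell genes followed the same pattern. Pmel had a ratio of 3.69 (3.1 to 4.41), against 0.337. Trpm1 had 4.15 (2.77 to 6.39), against 0.279. Tyrp1 had 5.44 (2.62 to 12.7), against 0.396, and Mlana had 4.94 (2.60 to 10.2), against 0.175. Trem2, a receptor of microglia, had 93 UMIs among control and 0 among mutant Kera/Matn4 cells. With the mutant set to the floor of 3 counts its ratio was 0.0367, and its counting interval reached up to 0.0461, against 1.76 (1.03 to 3.04) in the others. Ptgds had a ratio of 2.66 (2.01 to 3.55), against 0.262, and Angptl7 had 1.98 (1.16 to 3.47), against 0.730. Among proteoglycan and matrix genes, Lum had 1.16, against 0.939. Kera had 1.77, against 0.880, and Matn4 had 1.04 (1.01 to 1.06), against 0.642, but the rule used both genes to separate the classes, so these values are a description only. Aspn went the other way, at 0.814 against 1.60. Col14a1 had 1.42 (1.37 to 1.47), against 0.918, and Col2a1 had 1.58 (1.47 to 1.70), against 0.868. Chst1, a sulfotransferase of keratan sulfate, had 0.635 (0.496 to 0.808), against 1.21, and the protease gene Adamts9 had 1.94 (1.32 to 2.88), against 0.911. For the immune and pigment genes the share of UMIs in few cells moved with the values, as given for the RPE and immune lists, and values without such cells are given for Pmel, Trpm1 and Mlana with the processing alternatives.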

How the results depend on the processing

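No paired analysis was possible because each genotype had 1 library. The ratio of shares over kept cells, 0.716, was 0.628 without cells over 20000 UMIs, 0.822 when cells were thinned to 2000 UMIs before the rule and 0.985 over sex-restricted cells, where the ratio over mesenchyme was 1.30. The share of cells with both Kera and Matn4 was 69.2% in the control at a mitochondrial limit of 5%. It was 77.3% (control) and 85.7% (mutant) with at least 3 panel genes, and 86.0% and 91.4% after thinning. Genes lower than in other mesenchyme numbered 484 over sex-restricted cells and 422 at a minimum of 200 UMIs, against 730. Between genotypes, 597 genes were higher and 622 lower at a minimum of 20 UMIs, 92 and 91 at a minimum of 200 UMIs, and 725 were lower over sex-restricted cells, against 318 and 319. The median log2 ratio of the collagens, 0.50, was 0.43 without cells over 20000 UMIs, 0.35 after thinning, 0.38 over sex-restricted cells, 0.55 when centred and 0.42 as a mean of per-cell CPM. Directions reversed for Col18a1 with at least 3 panel genes (log2 −0.047) and for Ptgds over sex-restricted cells (−0.11). Without cells rich in immune or RPE UMIs, an alternative chosen after seeing the data, Pmel (−0.26) and Trpm1 (−0.15) reversed. Without the 5 richest cells per library, Fcer1g (0.45), Mlana (−0.23), Msc (−0.40) and Pmel (−0.039) did. The cause was not tested. Depth limits genes with few UMIs, and with 1 library per genotype the spread between embryos is unknown.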

Other observations

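Some further secreted and membrane proteins differed between the libraries. Mgp, an inhibitor of mineralization, was 1.48-fold (1.39 to 1.57) higher in mutant Kera/Matn4 cells and 1.67-fold (1.63 to 1.72) higher in the other collagen-rich cells. Slc26a7, an anion exchanger, was at 32.5 CPM in control and 55.6 CPM in mutant Kera/Matn4 cells, a ratio of 1.71 (1.49 to 1.96), against 1.86 in the others. Both genes were thus higher in the mutant library in each class. Among proteases, Adamts5 (49 and 104 UMIs) had a ratio of 2.42 (1.71 to 3.47) and Adamts9 (44 and 75 UMIs) of 1.94 (1.32 to 2.88) in Kera/Matn4 cells, against 1.11 and 0.91 in the others. Tnmd, 1 of the tendon panel genes that the rule limited, was at 10.6 and 21.6 CPM in Kera/Matn4 cells, a ratio of 2.04 (1.62 to 2.57), against 1.23 in the others. Of the 2 tendon panel genes compared, 1 was higher and 1 lower in the mutant. The tendon panel as a whole summed to 76.8 CPM in control and 62.6 CPM in mutant Kera/Matn4 cells. None of these differences has a replicate check.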
